A study of Mus musculus with 41 samples.

Results

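The 9 genes described here code for proteins of the epithelial tight junction and were taken by name from the 48795 genes of the deposited count table. They are 6 claudins (Cldn1, Cldn2, Cldn3, Cldn4, Cldn7 and Cldn8), the scaffold gene Tjp1, and the membrane proteins Ocln and F11r. Their messenger RNA was counted in 40 libraries of mouse kidney. All 9 passed the filter on low counts in both cohorts. The first cohort held 4 groups of 6 libraries from male mice aged 8 to 10 weeks. Control kidneys had no ischemia. In the other groups the left kidney was deprived of blood for 21 min, with body core held at 34 °C, and then reperfused, which is called unilateral ischemia-reperfusion injury (UIRI). UIRI d3 was harvested on day 3 and UIRI d7 on day 7. In UIRI+Nx d7 the uninjured kidney was also removed on day 3 (nephrectomy, Nx), and harvest was on day 7. The design text sets a sham operation against the nephrectomy, so UIRI d7 may differ from UIRI d3 in a sham operation as well as in time. The second cohort held WT UIRI d3 (n = 6), WT UIRI d7 (n = 6) and WT UIRI+Nx d7 (n = 4), with no Control group. WT is read here as wild type. Strain is not given in the sources used here. For the second cohort neither are sex, age, ischemia time, temperature or the day of nephrectomy. The libraries read the 3′ ends of transcripts from a section of the kidney pole, with total counts from 5090418 to 33362940. The labels describe separate mice for the first cohort but say nothing of cultures, litters or days, so p-values measure the spread between these libraries.

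The tight junction is a belt of membrane proteins that closes the gap between neighbouring epithelial cells and sets which ions can pass between them. Claudins form its strands, and each nephron segment has its own set: some claudins make pores and others seal. In the kidney Cldn2 forms the cation and water pore of the proximal tubule, and Cldn8 belongs to the distal tubule and collecting duct. Cldn1 is best known from Bowman's capsule, and Cldn3, Cldn4 and Cldn7 from the distal nephron and collecting duct. Tjp1 (ZO-1) ties the strands to actin, and occludin (Ocln) and junctional adhesion molecule A (F11r) are their membrane partners. In the grouping used below, Cldn2, Cldn3 and Cldn8 are segment claudins, Cldn1, Cldn4 and Cldn7 injury-related claudins, and Tjp1, Ocln and F11r junction partners. The grouping is a working one, and these 9 genes were chosen with earlier results of these data known.

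Claudin transcripts moved in different directions after injury. Cldn1, Cldn3, Cldn4 and Cldn7 rose in each of the 3 injured groups against Control, by 2.08-fold to 7.67-fold. Cldn8 fell in UIRI d3 and UIRI d7, and Tjp1 rose in UIRI d7. Cldn2, Ocln and F11r passed the test in none of these comparisons. In edgeR's quasi-likelihood test with Benjamini-Hochberg adjustment over all genes, 5 of the 9 genes passed 0.05 in UIRI d3 (4 higher, 1 lower), where 32.7% of the 15701 genes tested passed (17.8% higher, 14.9% lower). For UIRI d7 the count was 6 (5 higher, 1 lower), against 39.6% of all genes (21.5% higher, 18.1% lower). For UIRI+Nx d7 it was 4, all higher, against 31.3% of all genes (17.3% higher, 14% lower). The median log2 fold change of the 9 genes was 0.46, 0.77 and 0.45 in these comparisons, beside 0.00, 0.04 and 0.02 over all genes tested. The 3 comparisons share the Control libraries, so they are not independent of each other. Values below are CPM, a gene's reads relative to its library's total after edgeR's TMM scaling.

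**Figure D1:**
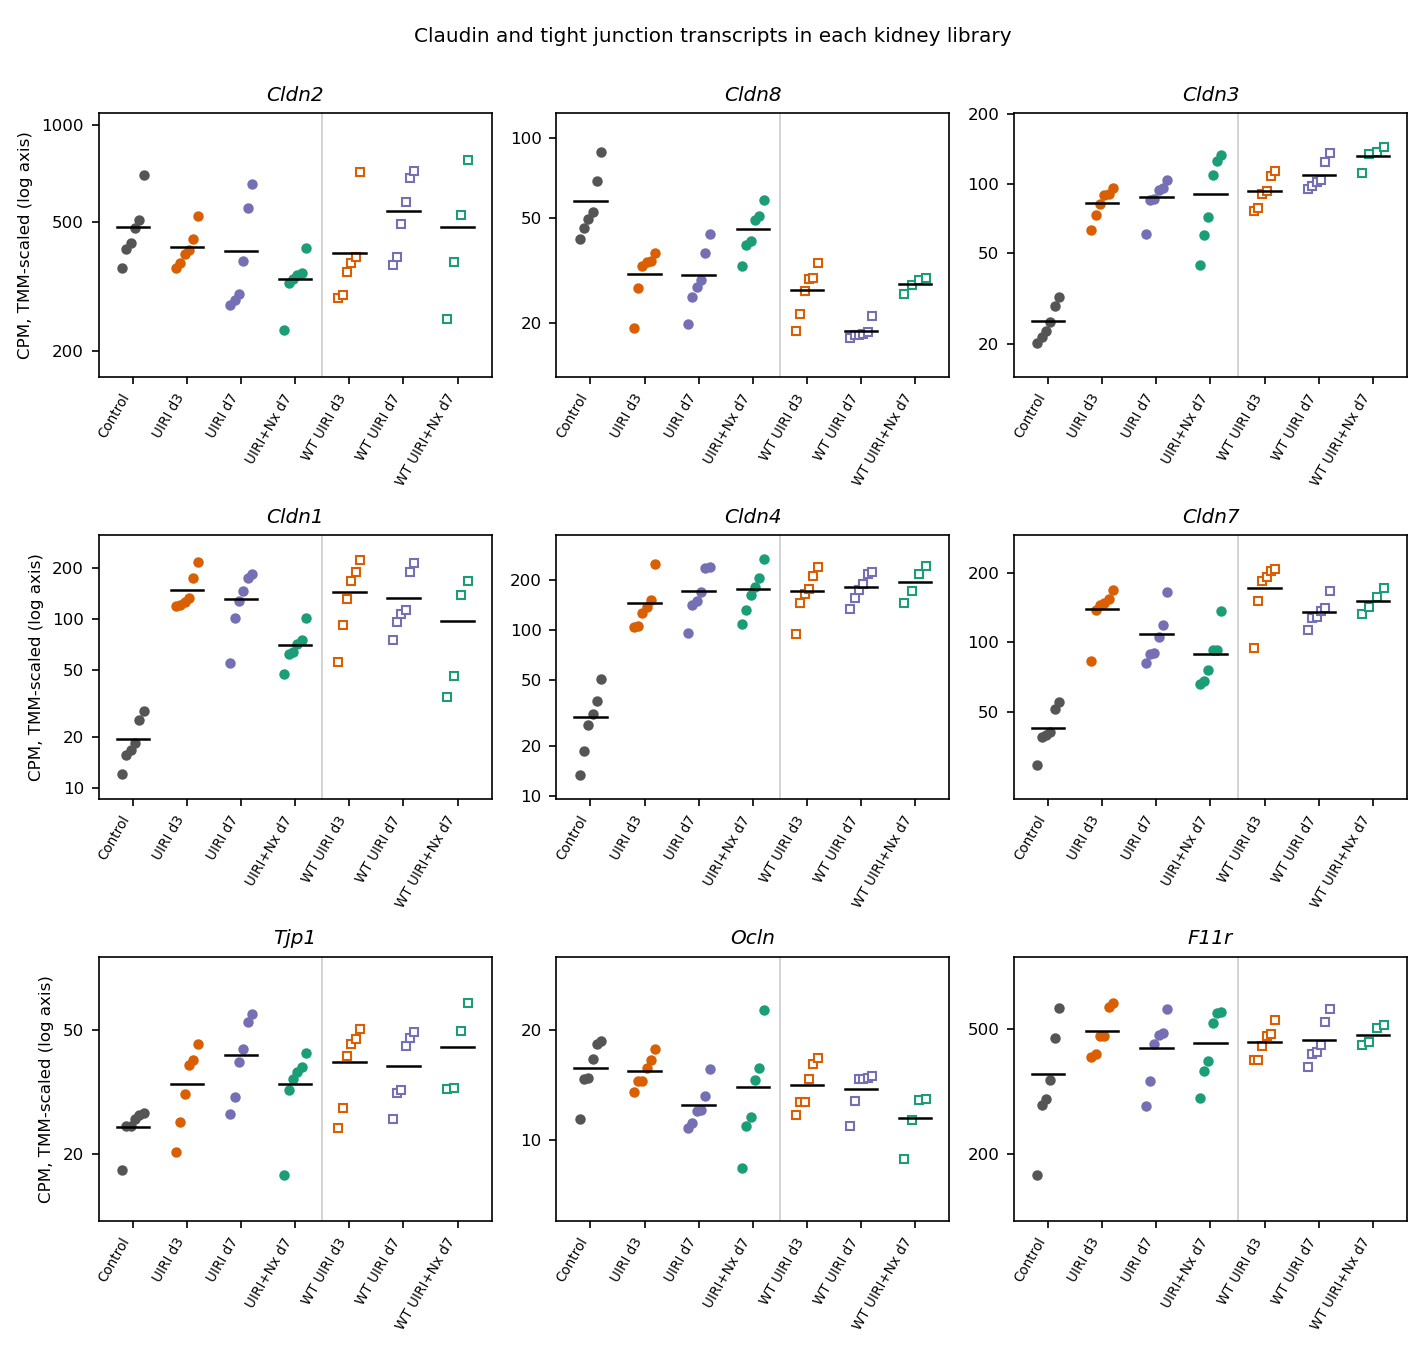
Level of each transcript in every library with a group, as CPM on a log axis, by group (filled circles, first cohort; open squares, second cohort; bars, group means). All injured libraries of the first cohort lie above all 6 Control libraries for Cldn1, Cldn3, Cldn4 and Cldn7, while the groups overlap for Cldn2, Tjp1, Ocln and F11r.

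Of the injury-related claudins, Cldn1 had the highest log2 fold change against Control in UIRI d3 and UIRI d7, and Cldn4 in UIRI+Nx d7. In Control its lowest, median and highest levels were 12.02, 17.5 and 28.3 CPM. They were 119, 128 and 217 CPM in UIRI d3, and 54.4, 136 and 184 CPM in UIRI d7. The UIRI+Nx d7 levels were 46.8, 67.0 and 100.6 CPM. Every injured library was above every Control library, and the nephrectomy group lay lowest among the injured groups, overlapping UIRI d7 but not UIRI d3. The log2 fold change against Control was 2.94 (SE 0.27, edgeR adjusted p = 3.19e-09) in UIRI d3. It was 2.76 (SE 0.27, edgeR adjusted p = 6.08e-09) in UIRI d7 and 1.85 (SE 0.26, edgeR adjusted p = 3.13e-06) in UIRI+Nx d7.

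Cldn4 codes for a claudin of the collecting duct that seals against cations. Its lowest, median and highest levels were 13.4, 29.0 and 50.5 CPM in Control and 103, 132 and 249 CPM in UIRI d3. They were 95.5, 158 and 238 CPM in UIRI d7, and 109, 171 and 265 CPM in UIRI+Nx d7. The injured groups overlapped each other almost wholly and none reached down to Control. The log2 fold changes against Control were 2.29 (SE 0.30), 2.53 (SE 0.30) and 2.57 (SE 0.30), with edgeR adjusted p of 1.05e-06, 1.91e-07 and 2.32e-07. Cldn7, which lies along the lateral membrane of collecting duct cells, had 29.4, 40.4 and 55.1 CPM in Control as lowest, median and highest. It had 83.2, 147 and 168 CPM in UIRI d3, 81.1, 97.8 and 165 CPM in UIRI d7, and 65.9, 84.1 and 137 CPM in UIRI+Nx d7. Again no injured library was as low as any Control library. Its log2 fold change was 1.71 (SE 0.21) in UIRI d3, 1.35 (SE 0.21) in UIRI d7 and 1.06 (SE 0.21) in UIRI+Nx d7, with edgeR adjusted p of 4.8e-07, 9.995e-06 and 2.75e-04. Within library block 2b, which holds 2 Control and 2 UIRI+Nx d7 libraries, the last difference was 1.12 with an edgeR adjusted p of 0.0628.

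Groups did not overlap for Cldn1, Cldn3, Cldn4, Cldn7 and Cldn8 in UIRI d3 against Control, that is for 5 of 9 genes, where 18.4% of all genes tested did not overlap. In UIRI d7 and in UIRI+Nx d7 this held for 4 genes each, Cldn1, Cldn3, Cldn4 and Cldn7, against 20.5% and 17.1% of all genes. Markers of injured tubule cells moved in the same comparisons. All 7 of that list (Havcr1, Krt8, Krt18, Krt20, Lcn2, Sox9 and Vcam1) were higher in each, and their summed level was 51.0 to 93.0 CPM in Control, 1566 to 2619 CPM in UIRI d3, 1050 to 2054 CPM in UIRI d7 and 819 to 1238 CPM in UIRI+Nx d7. None of the 7 is at 0. Of all genes tested 17.8%, 21.5% and 17.3% passed as higher in UIRI d3, UIRI d7 and UIRI+Nx d7. In a whole piece of kidney, more cells of a type and more RNA per cell cannot be told apart. Urothelium, which also makes claudins, is a possible neighbour in a pole section. Of its 6 markers none rose and 2 fell in each comparison, with a summed level of 10.5 to 66.2 CPM in Control, 4.95 to 38.9 CPM in UIRI d3, 6.27 to 34.4 CPM in UIRI d7 and 11.3 to 27.0 CPM in UIRI+Nx d7. Upk2 and Krt5 were at 0 in at least 1 library each. Of all genes tested 14.9%, 18.1% and 14% passed as lower in UIRI d3, UIRI d7 and UIRI+Nx d7.

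**Figure D2:**
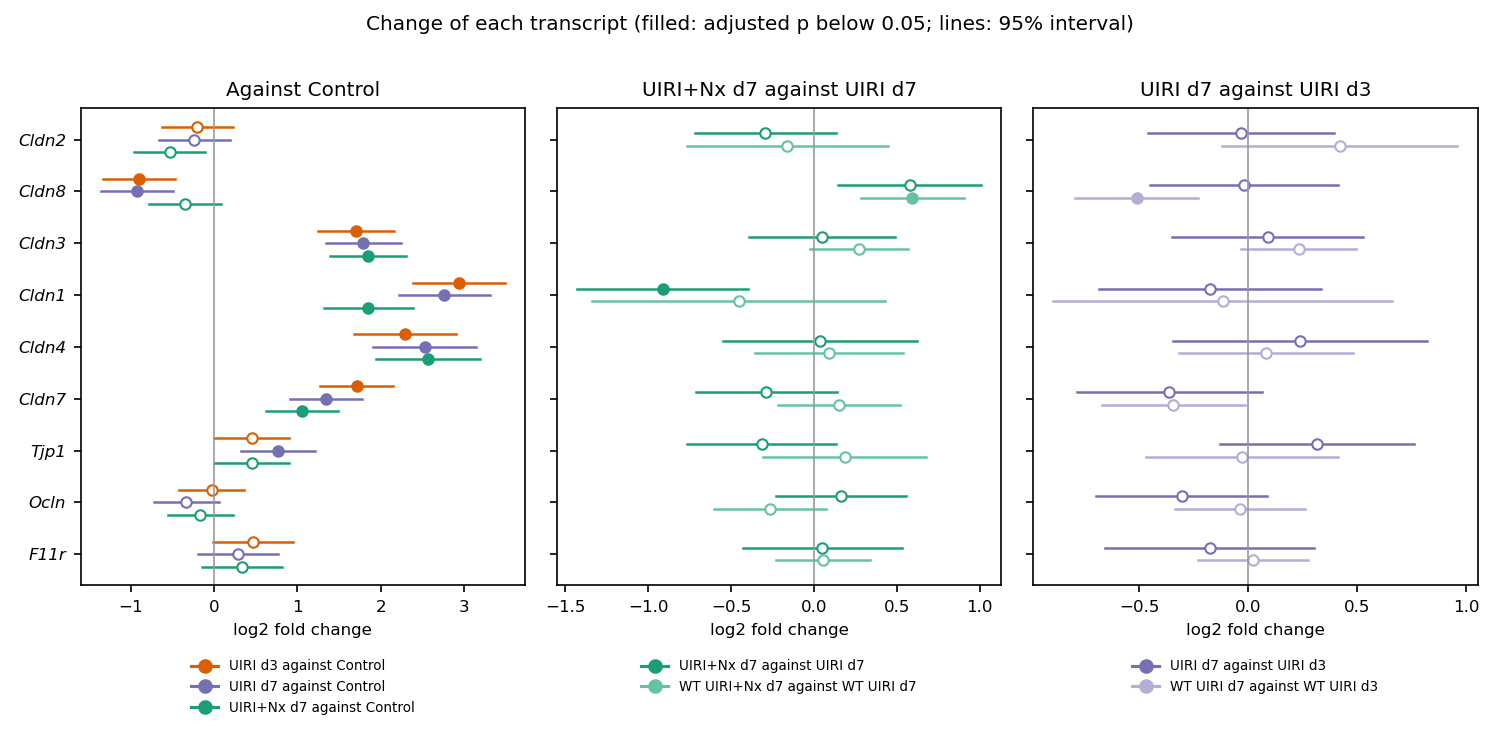
Log2 fold change of each transcript with its 95% interval, against Control, between UIRI+Nx d7 and UIRI d7, and between UIRI d7 and UIRI d3 in both cohorts (colours as listed under each panel; filled points passed an adjusted p of 0.05). The intervals of Cldn1, Cldn3, Cldn4 and Cldn7 lie above 0 in all 3 comparisons with Control, and those of Cldn8 lie above 0 in both nephrectomy comparisons, though only the second cohort passed the adjusted test.

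Cldn3, grouped here with the segment claudins, moved with the injury-related ones. Its lowest, median and highest levels were 20.2, 23.9 and 32.1 CPM in Control and 62.7, 85.4 and 95.5 CPM in UIRI d3. They were 60.5, 90.0 and 103 CPM in UIRI d7, and 44.1, 90.4 and 133 CPM in UIRI+Nx d7. No injured library was as low as a Control library, and UIRI+Nx d7 had the widest spread. The log2 fold changes were 1.70 (SE 0.22), 1.79 (SE 0.22) and 1.84 (SE 0.22), with edgeR adjusted p of 9.34e-07, 3.29e-07 and 3.19e-07.

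Cldn3 and Cldn4 are neighbours on chromosome 5. By GENCODE on GRCm38, the first cohort's build, Cldn3 lies at chr5:134986214-134987472 on the plus strand and Cldn4 at chr5:134945119-134946934 on the minus strand. Each has a single exon, and their starts are 39280 bases apart. The 3′ end of Cldn3 shares 40 bases with Wbscr25 on the other strand, which had 86 counts over the 40 libraries. The strand setting of the counting is not given in the sources used here, so reads from those bases cannot be told apart. The 250 bases before the start of both genes are shown because the pair rose in the same libraries, from RefSeq on GRCm38.p6, 5′ to 3′ on each gene's own strand. Capitals mark matches on either strand to the AP-1 motif TGANTCA, which binds Fos and Jun proteins, and to the TATA box motif TATAAA. These and the other motifs given below were chosen after the sequences had been seen.

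Cldn3 promoter, chr5:134985964-134986213, + strand: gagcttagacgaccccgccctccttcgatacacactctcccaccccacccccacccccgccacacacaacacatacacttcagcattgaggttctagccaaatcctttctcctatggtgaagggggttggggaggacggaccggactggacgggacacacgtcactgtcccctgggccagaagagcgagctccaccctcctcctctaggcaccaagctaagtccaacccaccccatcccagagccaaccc
Cldn4 promoter, chr5:134946935-134947184, - strand: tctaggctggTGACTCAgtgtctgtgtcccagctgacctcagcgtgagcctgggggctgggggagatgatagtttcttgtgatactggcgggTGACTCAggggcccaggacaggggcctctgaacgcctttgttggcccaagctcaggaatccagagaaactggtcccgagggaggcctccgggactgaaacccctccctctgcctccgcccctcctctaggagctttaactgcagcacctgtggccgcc

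The Cldn4 stretch holds 2 AP-1 matches, which begin 240 and 158 bases before the start, and the Cldn3 stretch holds none. An AP-1 match occurs in 6.75% of the 32851 promoters of this length. Among the other motifs, the SP/KLF motif GGGCGG occurs 1 time in each of these stretches and in 32.7% of all promoters. The motifs searched also included TEAD (GGAATG, 12.6% of promoters), GRHL (AACCNGTT, 1.79%), HNF4 (CAAAGTCCA, 0.384%) and the TATA box (12.4%), each searched on both strands. None of these 4 is present in either stretch. No 2 matches in the printed stretches overlap. Promoter entries were found for 8 of the 9 genes, Cldn8 being the exception.

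Of the genes around the pair, 1 rose in 1 comparison and none in the others. Of 15 annotated genes with a start within 100 kb of Cldn3 or Cldn4, 8 were tested. In UIRI d3 against Control none rose and 1 fell, Dnajc30, a mitochondrial protein gene. In UIRI d7 against Control Stx1a, a syntaxin gene of vesicle fusion, rose, and Dnajc30 and Mettl27 fell. For UIRI+Nx d7 against Control none rose, and Dnajc30 and Mettl27 fell. Of all genes tested 17.8%, 21.5% and 17.3% passed as higher in these comparisons, and 14.9%, 18.1% and 14% as lower. With 8 genes, the counts do not set the neighbours apart from other genes. The median log2 fold change of the 8 was -0.14, -0.51 and -0.35 in these comparisons. Levels of Cldn3 and Cldn4 correlated across the 24 libraries of the first cohort with r = 0.91, and their deviations from the group means with r = 0.49. In the 16 libraries of the second cohort the deviations correlated with r = 0.39. Each pair of values shares a library and its depth.

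**Figure D3:**
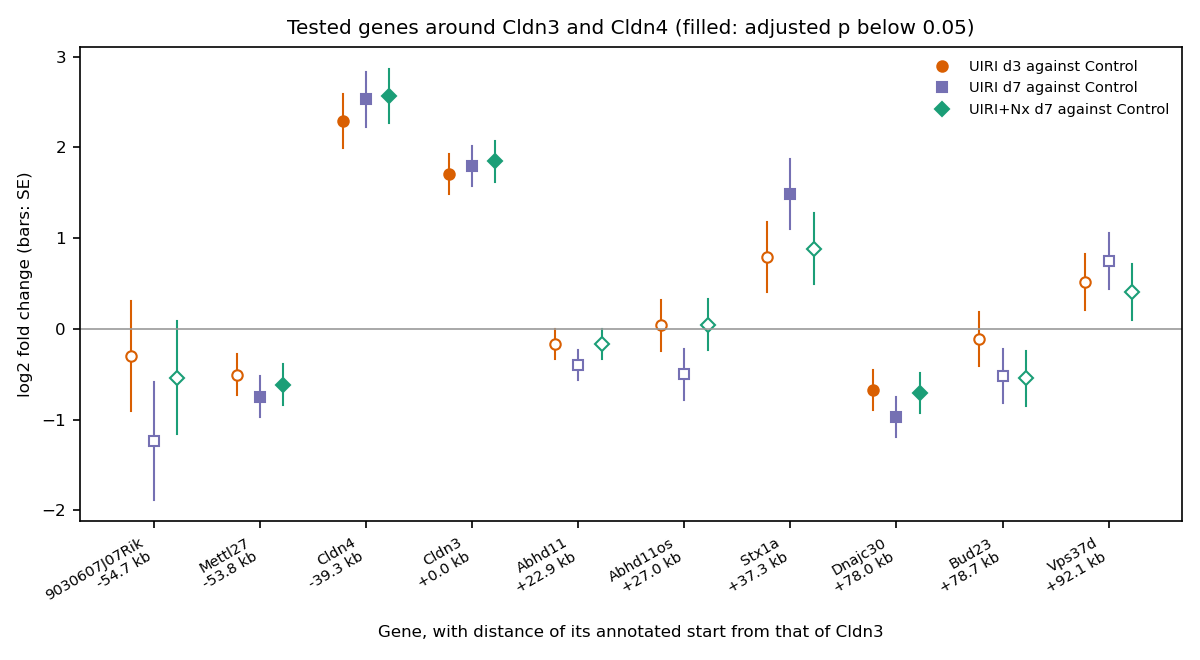
Log2 fold change against Control, with its SE, of the 8 tested genes around Cldn3 and Cldn4 and of the pair itself, ordered by the distance of their annotated starts from that of Cldn3 (filled symbols passed an adjusted p of 0.05). Cldn3 and Cldn4 stand between 1.70 and 2.57 in all 3 comparisons, above each neighbour, of which Stx1a in UIRI d7 at 1.48 comes closest.

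Cldn8 is the claudin of the distal nephron and collecting duct that partners with Cldn4 and whose amount is set by the ubiquitin ligase adaptor KLHL3. The gene lies at chr16:88560828-88563183 in GRCm38, on the minus strand, with a single exon. Lowest, median and highest levels were 41.5, 51.0 and 88.8 CPM in Control, 19.2, 33.6 and 36.9 CPM in UIRI d3, 19.9, 28.4 and 43.5 CPM in UIRI d7, and 33.0, 45.1 and 58.5 CPM in UIRI+Nx d7. UIRI d3 lay wholly below Control, 1 UIRI d7 library reached into the Control range, and UIRI+Nx d7 overlapped both Control and UIRI d7. Cldn8 fell by 0.91 on the log2 scale in UIRI d3 (SE 0.21, edgeR adjusted p = 0.00134) and by 0.93 in UIRI d7 (SE 0.21, edgeR adjusted p = 8.3e-04). The log2 fold change of UIRI+Nx d7 against Control was -0.35 (SE 0.21, edgeR adjusted p = 0.218). Within block 1a the difference of UIRI d3 from Control was -0.96 (edgeR adjusted p = 0.0627) and within block 2b -0.81 (edgeR adjusted p = 0.0898).

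Cldn8 rose with nephrectomy in the second cohort, and the first gave a like value that did not pass. In the first cohort UIRI+Nx d7 exceeded UIRI d7 by 0.58 on the log2 scale (SE 0.21, edgeR adjusted p = 0.102). With each of the 12 libraries left out in turn, the edgeR adjusted p ran from 0.0448 to 0.227. It passed only without UIRI d7 replicate 1. Under other settings the adjusted p ran from 0.0534 to 0.519. In the second cohort the 4 WT UIRI+Nx d7 libraries had 29.2, 29.7, 25.9 and 27.9 CPM. WT UIRI d7 had 17.6, 18.2 and 21.4 CPM as lowest, median and highest, and WT UIRI d3 had 18.7, 28.0 and 33.8 CPM. The nephrectomy libraries were all above WT UIRI d7 and inside the range of WT UIRI d3. Cldn8 rose by 0.59 (SE 0.15, edgeR adjusted p = 0.0239) in WT UIRI+Nx d7 against WT UIRI d7. It was the 1 gene of 9 to pass there, against 5.24% of the 15543 genes tested, and 1 of 9 without overlap, against 6.05% of all genes. Cldn8 also fell by 0.51 in WT UIRI d7 against WT UIRI d3 (SE 0.13, edgeR adjusted p = 0.0216), again the 1 gene of 9 to pass, where 8.56% of all genes passed. The nephrectomy call was lost without WT UIRI+Nx d7 replicate 1 (edgeR adjusted p = 0.0566) or replicate 2 (0.0904), and within blocks 2a (0.334) and 2c (0.484), where the differences were 0.67 and 0.50. The time call was lost without WT UIRI d3 replicate 1 (edgeR adjusted p = 0.062) or replicate 2 (0.0527), and was -0.53 within block 2a (edgeR adjusted p = 0.356).

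Markers of the segments that carry Cldn8 also differed between these groups. The summed level of 7 distal convoluted and connecting tubule markers was 2850 ± 441 CPM in Control, 789 ± 216 in UIRI d3, 472 ± 128 in UIRI d7 and 1597 ± 236 in UIRI+Nx d7 (SD, n = 6 each). That of 7 principal cell markers, among them Aqp2, was 1061 ± 324 CPM, 509 ± 277, 430 ± 116 and 720 ± 209 in the same order. In the second cohort the distal sum was 654 ± 99.7 CPM in WT UIRI d3 (n = 6), 549 ± 105 in WT UIRI d7 (n = 6) and 1191 ± 216 in WT UIRI+Nx d7 (n = 4), so the nephrectomy group stood well above WT UIRI d3, where Cldn8 levels lay in the same range. The principal cell sum was 533 ± 139 CPM in WT UIRI d3 (n = 6), 262 ± 46.6 in WT UIRI d7 (n = 6) and 509 ± 66.4 in WT UIRI+Nx d7 (n = 4). Of the 7 principal cell markers 6 fell in UIRI d3, 5 in UIRI d7 and 1 in UIRI+Nx d7 against Control. Of all genes tested 32.7%, 39.6% and 31.3% passed there in either direction. In UIRI+Nx d7 against UIRI d7 1 rose, where 6.62% of all genes passed. In the second cohort 3 rose in WT UIRI+Nx d7 against WT UIRI d7, where 5.24% of all genes passed. There 2 fell in WT UIRI d7 against WT UIRI d3, where 8.56% passed. Of the 7 distal markers 6 fell in UIRI d3, 5 in UIRI d7 and 4 in UIRI+Nx d7 against Control. In UIRI+Nx d7 against UIRI d7 2 rose, with a median log2 fold change of 0.42. In UIRI d7 against UIRI d3 1 fell, where 2.6% of all genes passed, and the median was 0.21 although the sum was lower. In WT UIRI+Nx d7 3 of 6 tested rose against WT UIRI d7 and 3 against WT UIRI d3, with medians of 0.84 and 0.63. Of all genes tested 5.24% and 6.02% passed in these 2 comparisons. Principal cell markers were detected throughout, with none at 0 as a group mean, while Pvalb of the distal list was at 0 in WT UIRI+Nx d7. Across the 16 libraries of the second cohort Cldn8 and the principal cell sum correlated with r = 0.90 in levels and 0.74 in deviations from the group means. In the 24 libraries of the first cohort the values were 0.59 and 0.02. With the distal sum Cldn8 correlated in levels with r = 0.71 over the first cohort's libraries and 0.54 over the second's, and in deviations with -0.01 and -0.03. The part of these segments in the Cldn8 differences was not tested.

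**Figure D4:**
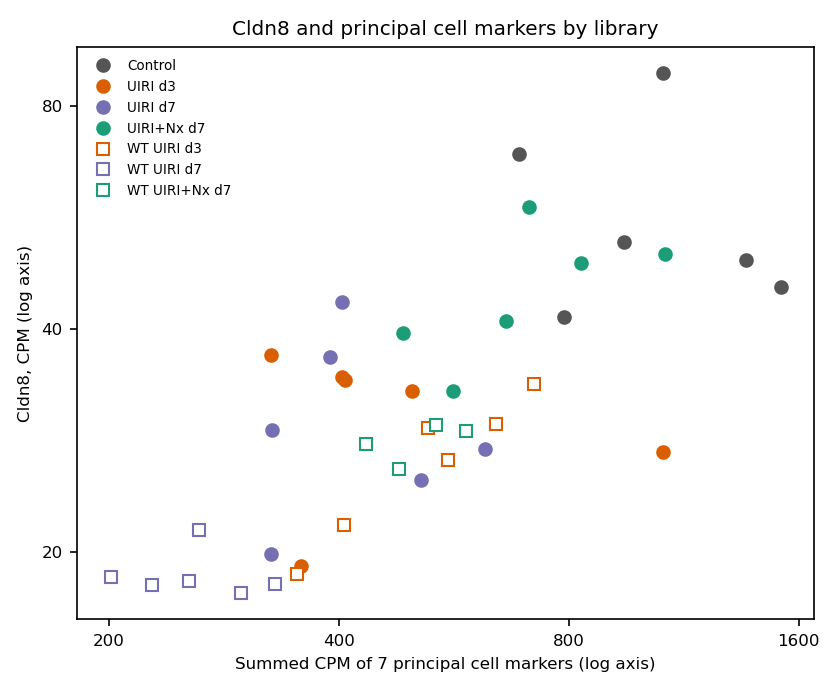
Cldn8 in CPM against the summed CPM of 7 principal cell markers, each on a log axis, with 1 symbol per library (circles, first cohort; squares, second cohort). The 6 WT UIRI d7 libraries sit at the lower left, with 17.6 to 21.4 CPM of Cldn8, and the Control libraries at the upper right, from 41.5 to 88.8 CPM.

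Of 17 genes that act on Cldn8 and related claudins, some changed in each direction. In UIRI d3 3 rose and 7 fell, in UIRI d7 4 rose and 8 fell, and in UIRI+Nx d7 4 rose and 6 fell, each against Control, where 32.7%, 39.6% and 31.3% of all genes tested passed. The median log2 fold changes were -0.30, -0.37 and -0.14, beside 0.00, 0.04 and 0.02 over all genes. Klhl3, the adaptor named above, fell by 2.58 in UIRI d3 (SE 0.37), 2.55 in UIRI d7 (SE 0.37) and 2.11 in UIRI+Nx d7 (SE 0.36). Wnk4, the kinase of distal salt handling whose product phosphorylates claudins, fell by 1.47 in UIRI d3 (SE 0.15) and 1.52 in UIRI d7 (SE 0.15). Wnk4 was higher in UIRI+Nx d7 than in UIRI d7 by 0.95 (SE 0.15, edgeR adjusted p = 1.98e-04) and in WT UIRI+Nx d7 than in WT UIRI d7 by 0.75 (SE 0.16, edgeR adjusted p = 0.0104). Sgk1, an aldosterone-induced kinase, rose by 1.59 in UIRI+Nx d7 against UIRI d7 (SE 0.30, edgeR adjusted p = 0.00146). The membrane protease gene Prss8 fell by 1.19 in UIRI d7 and 1.002 in UIRI+Nx d7 against Control.

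Cldn2 passed the test in none of the 9 comparisons. Its lowest, median and highest levels were 361, 456 and 699 CPM in Control, 361, 405 and 522 CPM in UIRI d3, 278, 339 and 654 CPM in UIRI d7, and 233, 339 and 417 CPM in UIRI+Nx d7. All 4 groups overlapped. The log2 fold change in UIRI+Nx d7 against Control was -0.53 (SE 0.21, edgeR adjusted p = 0.052), with a 95% interval from -0.96 to -0.11. It passed, lower, with DESeq2 (adjusted p = 0.0321) and with 4 other settings of edgeR, and without Control replicate 1 or UIRI+Nx d7 replicate 6. In UIRI d3 and UIRI d7 the differences were -0.21 and -0.24, with intervals from -0.63 to 0.22 and from -0.66 to 0.19. In the same comparisons 9, 10 and 7 of 10 proximal tubule markers fell, with medians of -1.29 in UIRI d3, -1.84 in UIRI d7 and -1.67 in UIRI+Nx d7. Their summed level was 12273 to 15979 CPM in Control, 4495 to 6126 CPM in UIRI d3, 3232 to 4426 CPM in UIRI d7 and 2749 to 6428 CPM in UIRI+Nx d7. Of all genes tested 14.9%, 18.1% and 14% passed as lower in these comparisons. A difference between Cldn2 and the proximal tubule markers was not tested. Cldn2 has the TATA box match of the set, 35 bases before its start, shown here for comparison with Cldn4.

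Cldn2 promoter, chrX:139800558-139800807, + strand: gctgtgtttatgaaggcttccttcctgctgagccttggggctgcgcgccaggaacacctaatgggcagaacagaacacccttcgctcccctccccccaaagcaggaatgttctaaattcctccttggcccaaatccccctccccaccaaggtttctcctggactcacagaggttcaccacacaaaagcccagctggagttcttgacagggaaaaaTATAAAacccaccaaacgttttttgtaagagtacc

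Of the junction partners, Tjp1 rose in UIRI d7. Lowest, median and highest levels were 17.8, 25.4 and 27.1 CPM in Control, 20.3, 34.9 and 45.2 CPM in UIRI d3, 26.8, 41.5 and 56.1 CPM in UIRI d7, and 17.1, 35.7 and 42.1 CPM in UIRI+Nx d7. Only 1 UIRI d7 library fell inside the Control range. The log2 fold change was 0.77 (SE 0.22, edgeR adjusted p = 0.00621) in UIRI d7, 0.45 (SE 0.22, edgeR adjusted p = 0.119) in UIRI d3 and 0.45 (SE 0.22, edgeR adjusted p = 0.123) in UIRI+Nx d7. The call in UIRI d3 was made without UIRI d3 replicate 2 (edgeR adjusted p = 0.0468), and that in UIRI+Nx d7 without UIRI+Nx d7 replicate 6 (0.0322). Ocln ran from 11.4 to 18.7 CPM in Control, 13.6 to 17.8 in UIRI d3, 10.8 to 15.7 in UIRI d7 and 8.40 to 22.7 in UIRI+Nx d7, and its 4 groups overlapped. Its log2 fold changes against Control were -0.03, -0.33 and -0.17, with 95% intervals from -0.42 to 0.36, -0.73 to 0.06 and -0.56 to 0.22.

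F11r, an adhesion molecule of epithelium, platelets and leukocytes, ran from 172 to 583 CPM in Control. It ran from 407 to 606 CPM in UIRI d3, 284 to 580 in UIRI d7 and 303 to 566 in UIRI+Nx d7. Control had the widest spread and all groups overlapped. The log2 fold changes were 0.46 (SE 0.23, edgeR adjusted p = 0.136), 0.28 and 0.34. Without Control replicate 5 the UIRI d3 difference was 0.65 (edgeR adjusted p = 0.0292), and with the library block as a covariate the UIRI d7 difference was 0.54 (edgeR adjusted p = 0.0466). With total counts alone as the scaling, without TMM, F11r passed in all 3 comparisons and Tjp1 in all 3 as well. That scaling moved the median of all genes from 0.00 to 0.26 in UIRI d3, from 0.04 to 0.39 in UIRI d7 and from 0.02 to 0.29 in UIRI+Nx d7, and the share of called genes that were higher from 54.4% to 76.5%, from 54.2% to 78.3% and from 55.2% to 76.5%. The F11r promoter holds the other AP-1 match of the 8 genes with an entry, 109 bases before its start.

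F11r promoter, chr1:171437311-171437560, + strand: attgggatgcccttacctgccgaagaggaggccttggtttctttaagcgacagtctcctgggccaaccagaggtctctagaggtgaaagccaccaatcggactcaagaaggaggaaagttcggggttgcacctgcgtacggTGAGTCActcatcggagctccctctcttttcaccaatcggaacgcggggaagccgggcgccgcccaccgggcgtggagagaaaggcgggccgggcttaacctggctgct

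Between the nephrectomy group and the other injured groups of the first cohort, Cldn1 was the member that changed. Cldn1 fell by 0.91 in UIRI+Nx d7 against UIRI d7 (SE 0.25, edgeR adjusted p = 0.027), the 1 gene of 9 to pass, where 6.62% of all genes passed. Levels were 46.8 to 100.6 CPM against 54.4 to 184 CPM, so the groups overlapped. It also fell by 1.09 against UIRI d3 (SE 0.25, edgeR adjusted p = 0.00964), without overlap and again as 1 of 9, against 5.13% of all genes that passed and 3.45% without overlap. In UIRI+Nx d7 against UIRI d7 the log2 fold change ran from -1.07 to -0.79 with 1 library left out. That first call lay near the threshold. It was lost when any of 6 of the 12 libraries was left out, which were UIRI d7 replicates 1, 2 and 5 and UIRI+Nx d7 replicates 3, 5 and 6, with edgeR adjusted p from 0.00437 to 0.0681 over all 12. Within block 1a the difference was -0.67 (edgeR adjusted p = 0.461), and with the library block as a covariate -0.84 (edgeR adjusted p = 0.0534). In the second cohort the log2 fold change was -0.45 (SE 0.42, edgeR adjusted p = 0.603). WT UIRI+Nx d7 had 167, 34.5, 138 and 45.8 CPM of Cldn1, and WT UIRI d7 had 74.9, 109 and 213 CPM as lowest, median and highest. Replicates 1 and 3 lay inside the WT UIRI d7 range and replicates 2 and 4 below it. The summed level of the 7 injured tubule markers was 1661 ± 338 CPM in UIRI d7 and 962 ± 157 in UIRI+Nx d7 (SD, n = 6 each), and 2021 ± 321 in WT UIRI d7 (n = 6) and 1397 ± 201 in WT UIRI+Nx d7 (n = 4). Taken singly, 2 of the 7 fell and 0 rose in the first cohort, with a median log2 fold change of -0.03. In the second cohort 2 fell and 1 rose, with a median of -0.23, where 5.24% of all genes passed. The sums thus do not stand for the whole list. That of the 6 leukocyte markers was 286 ± 146 CPM in UIRI d7 and 174 ± 45.0 in UIRI+Nx d7 (SD, n = 6 each). It was 241 ± 59.2 in WT UIRI d7 (n = 6) and 175 ± 37.0 in WT UIRI+Nx d7 (n = 4). Of 4 leukocyte markers tested, 1 fell and 0 rose in each of these 2 comparisons. After group means were subtracted, Cldn1 and the leukocyte sum correlated with r = -0.74 over 24 first-cohort libraries and -0.85 over 16 second-cohort libraries. Within groups, libraries with a lower leukocyte sum thus tended to have more Cldn1. The part of injured tubule cells or leukocytes in the Cldn1 difference was not tested.

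Cldn7 in UIRI+Nx d7 against UIRI d3 was -0.65 (SE 0.21, edgeR adjusted p = 0.0669). It passed, lower, with DESeq2 (adjusted p = 0.0457) and without UIRI d3 replicate 6 (edgeR adjusted p = 0.0241) or UIRI+Nx d7 replicate 6 (0.0203). Cldn3 rose by 0.50 in WT UIRI+Nx d7 against WT UIRI d3 (SE 0.14, edgeR adjusted p = 0.0378), the 1 gene of 9 to pass, against 6.02% of all genes. The 4 nephrectomy libraries had 111, 145, 134 and 138 CPM of Cldn3, and WT UIRI d3 had 76.3, 91.5 and 114 CPM as lowest, median and highest. This call was lost without any of WT UIRI+Nx d7 replicates 2, 3 and 4 or WT UIRI d3 replicates 3, 4, 5 and 6. All WT UIRI d3 libraries are in block 2a, with 2 of the 4 WT UIRI+Nx d7 libraries, and the others are in 2c. With the library block as a covariate the difference was 0.51 (edgeR adjusted p = 0.0688), within block 2a 0.45 (0.228), and with the replicate block 0.51 (0.0531). None of the 9 genes passed in UIRI d7 against UIRI d3 of the first cohort, in edgeR or DESeq2, and 0 had an unadjusted p under 0.05, where 2.6% of all genes passed.

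The cohorts were compared by the difference between their log2 fold changes in a joint edgeR fit of 16606 genes. None of the 9 genes passed in any of the 3 shared contrasts, 0 had an unadjusted p under 0.05, limma-trend also called 0, and 0% of all genes passed. For Cldn8 in UIRI+Nx d7 against UIRI d7 the difference was 0.02 (SE 0.27, edgeR adjusted p = 0.99). For Cldn1 it was 0.46 (SE 0.48, edgeR adjusted p = 0.785). For Cldn8 between days 7 and 3 the difference was -0.50 (SE 0.25, edgeR adjusted p = 0.9998).

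Within groups, some of the 9 transcripts moved together and others in opposite directions, and some pairs changed sign between cohorts. After group means were subtracted, Cldn2 and Cldn1 correlated with r = -0.63 over 24 libraries of the first cohort and -0.85 over 16 of the second. Cldn2 and Tjp1 correlated with -0.58 and -0.89, and Cldn1 and Tjp1 with 0.43 and 0.91. Cldn7 and F11r correlated with 0.63 and 0.33. Pairs that changed sign included Cldn7 and Tjp1, with -0.38 and 0.56, and Cldn2 and Cldn7, with 0.19 and -0.65. For Cldn1, Cldn2 and Tjp1 the libraries thus ran from high Cldn2 with low Cldn1 and Tjp1 to the reverse. WT UIRI d3 replicate 6 was at the first end, with 716 CPM of Cldn2 and 55.7 CPM of Cldn1, and so were WT UIRI+Nx d7 replicates 2 and 4, with 528 and 777 CPM of Cldn2. Without WT UIRI d3 replicate 6, Cldn7 was lower in WT UIRI d7 than in WT UIRI d3 by 0.47 (edgeR adjusted p = 0.0195), where with it the difference was -0.34 (edgeR adjusted p = 0.195). The summed level of 6 leukocyte markers, Cd79a being at 0 in most groups, moved along the same line. Its deviations correlated with those of Cldn2 at 0.69 and 0.87, of Cldn1 at -0.74 and -0.85, and of Tjp1 at -0.64 and -0.88 in the first and second cohort. The mitochondrial share of counts correlated within the first cohort with Cldn3 at -0.69, Cldn4 at -0.65, Cldn2 at -0.54 and Cldn8 at 0.55. In the second cohort these values were -0.35, -0.21, -0.44 and 0.15. These are descriptions over libraries that share their scaling, and the part of leukocytes or mitochondrial RNA in the member results was not tested.

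**Figure D5:**
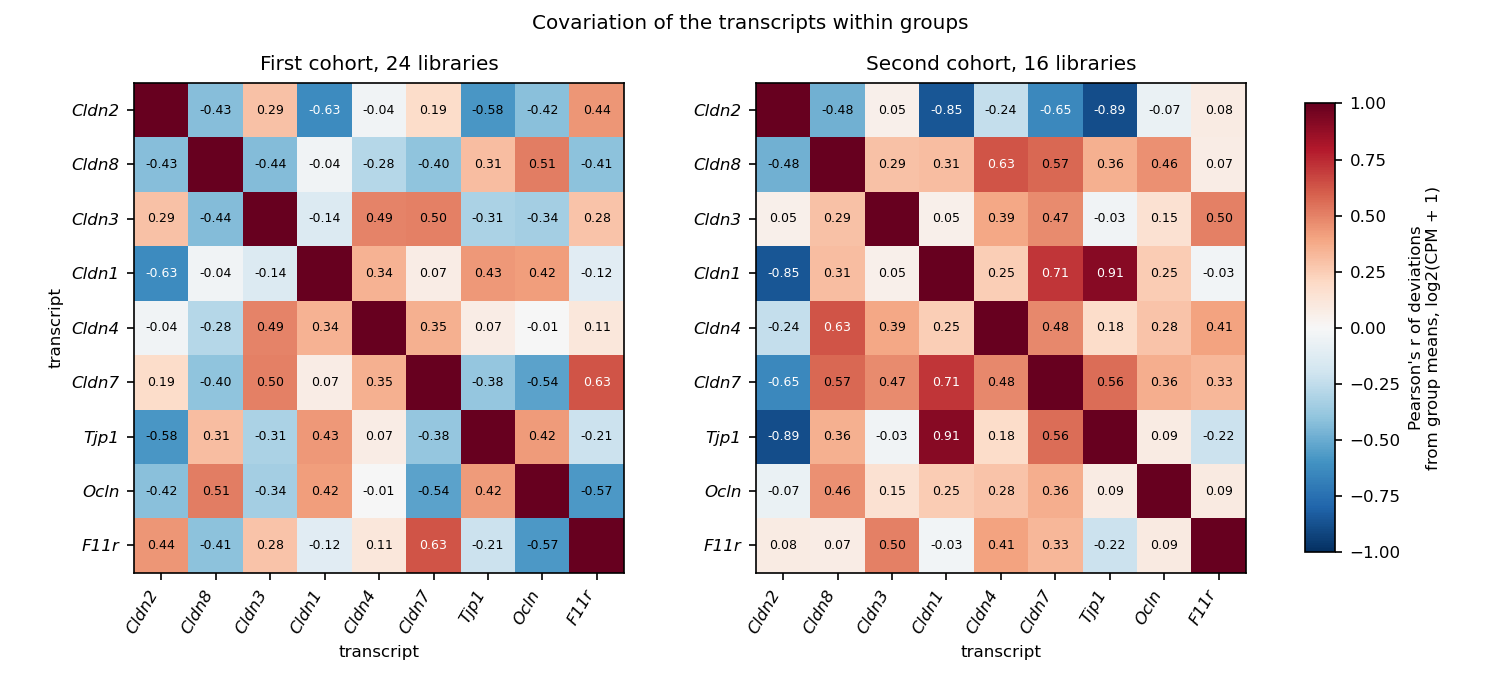
Pearson correlation of deviations from group means on the log2(CPM + 1) scale between each pair of the 9 transcripts, in the first cohort (24 libraries) and the second (16 libraries), coloured from -1 (blue) to 1 (red). Cldn2 is negative with Cldn1 and Tjp1 in both panels, at -0.63 and -0.58 in the first and -0.85 and -0.89 in the second.

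The genes whose level followed each member most closely over the 24 libraries of the first cohort, by Pearson's r of log2(CPM + 1), differed between members. For Cldn1 they were Havcr1 (KIM-1, the tubular injury marker), Cd44 (the hyaluronan receptor) and Actn1 (an actin cross-linker), with r of 0.97, 0.96 and 0.95. For Cldn4 they were Sdc1 (syndecan-1), Alox5ap and Lcn2 (NGAL), with r of 0.98, 0.96 and 0.96. In the 16 libraries of the second cohort the r of Cldn1 with Havcr1, Cd44 and Actn1 was 0.74, 0.81 and 0.72, and that of Cldn4 with Sdc1, Alox5ap and Lcn2 was 0.67, 0.63 and 0.33. For Cldn7 the closest were Msn, Tubb5 and Acta2, with first-cohort r of 0.95, 0.93 and 0.93 and second-cohort r of 0.34, 0.55 and 0.18. For Cldn3 they were Rhoj, Cd300lf and Ncf1, with first-cohort r of 0.96, 0.96 and 0.95 and second-cohort r of 0.35, 0.47 and 0.51. Those of Cldn8 were Mfap3l, Mecom and Eci1, with r of 0.85, 0.85 and 0.85 in the first cohort and 0.44, 0.76 and 0.78 in the second. Those of Cldn2 were Atp6v0e2, Mrpl58 and Spr, with r of 0.82, 0.65 and 0.90 in the second cohort. Those of Tjp1 were Rbms1, Acer3 and Ets1, with 0.90, 0.79 and 0.72 there, and those of F11r were Dvl2, Capn1 and Sec61a1, with 0.20, 0.41 and 0.19. Those of Ocln were Scyl2, Clpx and Psmd11. Ocln had the lowest r of these, 0.73 to 0.75 in the first cohort, and from -0.13 to 0.21 in the second. These correlations include the differences between groups. The genes were picked as the highest of 10709 candidates in the same first-cohort libraries, so high values there are partly built in. After group means were subtracted, r was 0.77 for Cldn1 with Havcr1, 0.87 for Cldn4 with Sdc1, 0.82 for Cldn3 with Rhoj, 0.80 for Cldn7 with Msn and 0.72 for Cldn8 with Mfap3l. It was 0.89 for Cldn2 with Atp6v0e2, 0.90 for F11r with Dvl2, 0.83 for Tjp1 with Rbms1 and 0.75 for Ocln with Scyl2. By this measure Havcr1 ranked only 189 among the candidates for Cldn1, whose highest r was 0.89. The genes just given for the other members ranked from 3 (Sdc1, Dvl2) to 25 (Rhoj).

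Other tight junction genes are described by lists. Of 20 other claudins in the table, 11 were tested in the first cohort. In UIRI d3 2 rose and 2 fell, in UIRI d7 2 rose and 4 fell, and in UIRI+Nx d7 1 rose and 3 fell against Control, with medians of -0.07, -0.23 and -0.33. Over all genes tested 32.7%, 39.6% and 31.3% passed. Cldn10, of the thick ascending limb and proximal tubule, fell by 0.77 in UIRI d3 (SE 0.24), 1.09 in UIRI d7 (SE 0.24) and 0.64 in UIRI+Nx d7 (SE 0.23). Cldn12 fell by 0.52 and Cldn16, whose product carries magnesium in the thick ascending limb, by 0.43 in UIRI d7. Cldn24 and Cldn34a had 0 counts in all 40 libraries. Beside them, 4, 5 and 5 of 6 thick ascending limb markers fell in UIRI d3, UIRI d7 and UIRI+Nx d7, and the part of that segment in these falls was not tested.

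Of 14 other transmembrane junction proteins 13 were tested; 2 rose and 2 fell in UIRI d3, 3 rose and 2 fell in UIRI d7, and 2 rose and 1 fell in UIRI+Nx d7, against 32.7%, 39.6% and 31.3% of all genes tested. Lsr, which marks the meeting point of 3 cells, rose by 1.18 in UIRI d3 (SE 0.17), 1.06 in UIRI d7 (SE 0.17) and 0.67 in UIRI+Nx d7 (SE 0.17). Its relative Ildr2 fell by 0.60, 1.24 and 0.58 in the same order, and Cxadr, the coxsackievirus receptor, rose by 0.79, 0.80 and 0.49. Of 30 plaque and polarity genes, 6 rose in each comparison with Control and 2, 2 and 1 fell. Of all genes tested 32.7%, 39.6% and 31.3% passed, and a difference of the list from these shares was not tested. Rab13, a GTPase of junction assembly, rose by 1.34, 1.51 and 1.08, and Prkcz, the atypical protein kinase C of cell polarity, fell by 0.99 in UIRI d7 and 1.46 in UIRI+Nx d7. Among 13 adherens junction genes 3, 3 and 4 rose and 0, 2 and 2 fell, against the same shares. Cdh6, a cadherin of the developing proximal tubule, rose by 3.09, 3.61 and 3.31, and Cdh3 by 2.44, 3.07 and 2.60. In UIRI+Nx d7 against UIRI d7 6.62% of all genes passed. Of the transmembrane list 2 rose there, Ildr2 by 0.66 and Igsf5 by 0.58, and 0 fell. None of the plaque genes passed in that comparison, and Nectin2 of the adherens list fell by 0.77. Nectin2 rose by 1.39 in UIRI d3 and 1.55 in UIRI d7 against Control. In the second cohort 5.24% of all genes tested passed in WT UIRI+Nx d7 against WT UIRI d7. There 1 of 13 transmembrane genes passed, Lsr, which fell by 0.49. Of 30 plaque and polarity genes 1 passed, the angiomotin-like gene Amotl2, which rose by 0.96.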

How the data were processed

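Messenger RNA was counted in 40 mouse kidney libraries with a group, and 1 further column is titled as undetermined. Per the labels' protocols, libraries were made from 500 ng of RNA from a frozen pole section with the QuantSeq 3′ FWD kit. The authors deposited raw whole-number counts per gene. Per the submitters' processing notes, Trimmomatic, STAR and HTSeq 0.6.1 were used with GRCm38 (mm10) for the first cohort, and STAR 2.7.11b with GRCm39 for the second. Not given in the sources used here are the second cohort's counting tool, the strand setting and the annotation. Reads of 3′ ends cannot separate isoforms that share an end, and their counts do not scale with transcript length. Levels were not compared between genes.

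Columns were joined to groups through library numbers in the labels. A column without a group entered no comparison. No 2 libraries held identical values. Library blocks (1a, 1b and 2b in the first cohort, 2a and 2c in the second) were read from runs of numbers in column names; no label calls them batches. Symbols were matched for 48349 of 48795 identifiers.

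Each cohort was fitted on its own with edgeR 4.0.16 (quasi-likelihood F test, trimmed mean of M values, filterByExpr) in R 4.3.3, with Benjamini-Hochberg adjustment over the 15701 and 15543 genes tested and a threshold of 0.05. The SE of a log2 fold change was the fold change divided by the root of its F statistic. Differences between cohorts were interaction contrasts in a joint fit of 16606 genes. The script was tested on simulated data. Alternatives were DESeq2 1.42.0, limma-trend (limma 3.58.1), other scalings and filters, only the groups compared, replicate and library blocks, and leaving out each library.

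The members and lists were chosen with earlier results of these data known. All 9 members are named. Of each other list, genes could be named from up to 3 per comparison with the smallest adjusted p that passed and reached a group mean of 5 CPM, besides list genes with 0 counts, and the text gives some of these, chosen with their values known. A result of the regulator list that this rule names is not reported here. Genes whose pattern is most like a member's are the 3 with the highest Pearson's r over the first cohort, on log2(CPM + 1), among named genes with a mean of at least 5 CPM. Promoter sequences are from RefSeq (GRCm38.p6) and gene positions from GENCODE on GRCm38.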

Additional observations from a re-analysis of the deposited data

Results flagged for a closer look

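Over 63 sets of member values within a group, 5 held a library whose gap to the next was above the 95% limit for its group size. Chance gives this in about 1 group in 20. Cldn2 was 716 CPM in WT UIRI d3 replicate 6, above the other 5 libraries of that group. Cldn8 was 21.4 CPM in WT UIRI d7 replicate 4, the highest of its group. In UIRI d3 of the first cohort, Cldn4 was 249 CPM in replicate 3, the highest, and Cldn7 was 83.2 CPM in replicate 6, the lowest. Tjp1 was 17.8 CPM in Control replicate 5, the lowest.

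The column without a group is titled as undetermined, the usual name for reads that sequencing software could not assign to any library, so its values are those of no single kidney. It had 12446693 counts. In plain CPM, with a Wilson 95% interval that covers counting error only, it held more of 5 members than any Control library. Cldn3 was 86.4 (81.4 to 91.8), against a Control highest of 27.5. Cldn1 was 109 (103 to 115), against 24.3, and Cldn4 was 135 (129 to 142), against 43.4. Cldn7 was 129 (123 to 136), against 45.7, and Tjp1 was 38.2 (34.9 to 41.8), against 24.4. All 9 members lay inside the range of the second cohort's libraries, for example Cldn8 at 26.7 (24.0 to 29.7) within 17.4 to 32.9.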

How the results depend on the processing

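Over 1008 single-gene values under other settings, 24 lost a call, 12 gained one and none reversed. Over 936 with a library left out, 17 lost one and 9 gained one. Differences that were not called changed sign in 117 settings over 35 gene comparisons. Calls against Control held for Cldn1, Cldn3 and Cldn4 throughout. Within single blocks Cldn8 in UIRI d3 and Cldn7 in UIRI+Nx d7 were lost, as given above. The cause was not tested.

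In UIRI+Nx d7 against UIRI d7 the 1 call (Cldn1) became 0 at a threshold of 0.01, with only the 2 groups compared, with the replicate block, with the library block as covariate and within block 1a. In UIRI+Nx d7 against UIRI d3 the 1 call became 0 within blocks 1a and 2b and 2 with DESeq2. In WT UIRI+Nx d7 against WT UIRI d7 it became 0 at 0.01, with the replicate block and within blocks 2a and 2c. In WT UIRI d7 against WT UIRI d3 it became 0 at 0.01, with the library block as covariate and within block 2a. In WT UIRI+Nx d7 against WT UIRI d3 it became 0 at 0.01, with total counts alone, with no filter, with only the 2 groups compared, with the replicate block, with the library block as covariate and within block 2a. Leaving out 1 library gave 0 to 1 calls in UIRI+Nx d7 against UIRI d7, 1 to 2 against UIRI d3, 0 to 1 in WT UIRI+Nx d7 against WT UIRI d7, 0 to 2 in WT UIRI d7 against WT UIRI d3, and 0 to 1 in WT UIRI+Nx d7 against WT UIRI d3.

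Samples with equal replicate numbers shared only a number: their deviations correlated between -0.48 and 0.52, and in no comparison were all pairs above 0.1. With the replicate block, calls were 5, 6 and 4 in UIRI d3, UIRI d7 and UIRI+Nx d7 against Control, 0 in UIRI+Nx d7 against UIRI d7, 0 in UIRI d7 against UIRI d3, 1 in UIRI+Nx d7 against UIRI d3, and 0, 1 and 0 in the WT comparisons of UIRI+Nx d7 with UIRI d7, UIRI d7 with UIRI d3 and UIRI+Nx d7 with UIRI d3. Against Control other settings gave 4 to 7, 6 to 7 and 3 to 6 calls.

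With total counts alone the share of called genes that were higher went from 47.8% to 29.9% in UIRI+Nx d7 against UIRI d7, where the median of all genes moved to -0.10, and from 47.7% to 66.0% in UIRI d7 against UIRI d3. It went from 49.3% to 31.3% in WT UIRI+Nx d7 against WT UIRI d7 and from 49.4% to 37.5% against WT UIRI d3.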
